A study of Mus musculus with 2 samples.

Results

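The values of 8 genes of cholesterol synthesis and its control were compared in pancreatic RNA: Hmgcs1, Fdps, Fdft1, Sqle, Lss and Cyp51, which encode enzymes of the pathway, and Srebf2 and Insig1, which encode its regulators. They were taken by name, and every probe set whose platform gene symbol is one of the 8 was kept, which gave 21 of the 45101 probe sets on the array, none of them shared with another gene symbol. The 2 groups were male mice of the inbred laboratory strain C57BL/6J. The methionine-deficient group were offspring of dams fed a methionine-deficient diet while pregnant, and the control group were offspring of dams on control diet. In both groups the diet was the mothers' alone: the offspring were not treated after birth, ate control diet from weaning at 3 weeks, and gave pancreas at 10 weeks. Each group entered as 1 RNA pool on 1 array, and neither the number of mice nor that of litters per pool is stated in the labels. With n = 1 array per group there is no replicate error and no p-value, and every value below is a single measurement.

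Cells build cholesterol from acetyl-CoA through mevalonate, isoprenoid diphosphates, squalene and lanosterol. Transcription of nearly all the enzymes is driven by SREBP2, the product of Srebf2, a membrane-bound factor that is released from the endoplasmic reticulum when sterols are scarce. INSIG1 holds the SREBP escort SCAP in the endoplasmic reticulum when sterols are plentiful, and its own gene is a target of SREBP, so enzyme transcripts and Insig1 commonly move together when sterol supply changes. The pancreas is made up mostly of acinar cells, which keep an extensive endoplasmic reticulum for the secretion of digestive enzymes.

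Of the 8 genes, Srebf2 was at least 2-fold lower in the methionine-deficient pool by its brightest probe set, and none was at least 2-fold higher. The 6 enzymes and Insig1 lay between 1.51-fold lower (Lss) and 1.08-fold higher (Insig1), and 2 of the 8 genes (Srebf2 and Lss) differed by at least 1.5-fold, beside 19.4% of all genes past the level filter. Lower values were seen for 6 of the 8 and higher ones for 2, beside 5924 lower and 5924 higher of all 11848 genes past the level filter. All 8 were lower with the arrays scaled to their poly-A controls (probe sets for bacterial spike-in transcripts). By construction that scaling lowered all genes alike, and it moved their median by -0.18. Without that scaling, the median of the members' differences (methionine-deficient minus control) was -0.15 on the log2(intensity + 1) scale. Over all 11848 genes whose brightest probe set passed the level filter (mean level of at least 150, the median of probe sets other than array controls), the median was 0.00. Among those genes 2.80% were at least 2-fold lower and 3.87% at least 2-fold higher, beside 1 of 8 members lower and 0 of 8 higher. Srebf2 lay in the dimmest of 5 level bins, where 175 of 1973 genes were at least 2-fold lower and 268 at least 2-fold higher. Of the members' other probe sets past the filter, 3 of 6 were lower and 3 higher, with a median of -0.03. They come from Hmgcs1, Fdft1, Lss and Srebf2 only, 3 of them from Hmgcs1, so they do not cover the same genes.

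**Figure D1:**
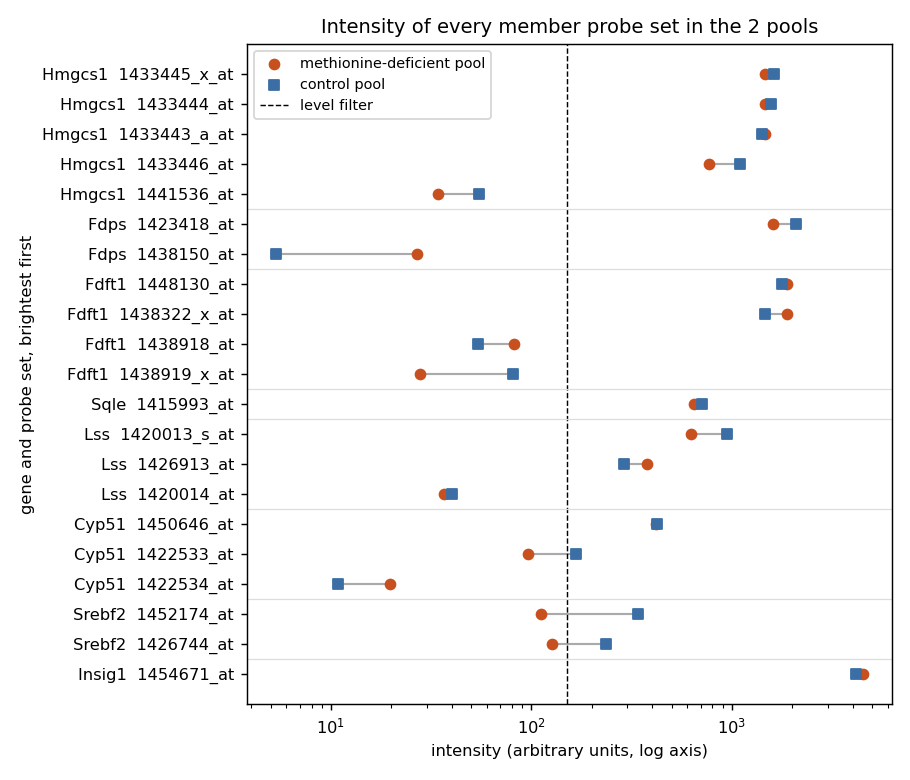
Intensity (log axis) of each of the 21 member probe sets in the methionine-deficient pool (circles) and the control pool (squares), joined by a line and grouped by gene with the brightest probe set first. The dashed line is the level filter at 150. Both Srebf2 probe sets lie to the left of the filter in the methionine-deficient pool and to its right in the control pool, and the long lines at the left edge belong to dim probe sets such as that of Fdps, at 27.0 in the methionine-deficient pool and 5.31 in the control pool.

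Each difference is given beside a spread, which stands in for the missing replicate error. It is the robust SD of the log2 difference of 1 probe set, estimated from probe sets of the same gene at like level, and it covers probe noise within these arrays only. Past the filter it was 0.78, 0.59, 0.41, 0.28 and 0.18 in 5 bins from dimmest to brightest, and below the filter it was 1.86. The member probe sets past the filter fell in all 5 bins, with those of Srebf2 in the dimmest.

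Srebf2, the gene of the factor that drives the pathway, had the largest difference among the members' brightest probe sets. The brighter Srebf2 probe set had an intensity of 112 in the methionine-deficient pool and 342 in the control pool, a 3.04-fold lower value (log2 difference -1.61, spread 0.78). The second Srebf2 probe set, designed on the same transcript sequence, had 126 in the methionine-deficient pool and 237 in the control pool (1.87-fold lower, log2 difference -0.90, spread 0.78). Both probe sets were thus lower in the methionine-deficient pool, by 2.07 and 1.16 times the spread. The gene is dim on these arrays: its methionine-deficient intensities lay below that array's median of 171, and it passed the level filter only through the control pool. In the dimmest bin, 142 of 1973 genes (7.20%) had a difference at least as large in size as that of the brighter probe set, and 523 of 1973 (26.5%) one as large as that of the second. Of the 2918 genes with exactly 2 probe sets past the filter, 750 (25.7%) were lower in both.

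Insig1, the gene of the protein that holds SREBP back, had close intensities in both pools. Its single probe set had 4515 in the methionine-deficient pool and 4183 in the control pool (log2 difference 0.11, spread 0.18). The difference was 0.63 times the spread, and 55.7% of genes in that bin had one as large.

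To show the control region of the regulator beside that of an enzyme gene, the window from 250 bases before to 50 bases after the start of transcription was taken from a table of RefSeq promoters (GRCm38.p6), in which 5 of the 8 genes were matched (Srebf2, Insig1, Hmgcs1, Lss and Cyp51). The motifs looked for, on both strands, were TCACNCCAC, a form of the sterol regulatory element that SREBP binds, CCAAT, which NF-Y binds, and GGGCGG, which Sp1 binds. NF-Y and Sp1 are known partners of SREBP at sterol-responsive promoters. The sterol element motif was found in 1 of the 5 windows, that of Hmgcs1, and in 1.24% of all 32851 promoter windows. Only this exact form was looked for, so windows without a match can still hold another form of the element. CCAAT and GGGCGG were each in all 5 windows and in 37.4% and 35.7% of all windows. The 2 windows below are those of Srebf2, the member with the largest difference, and of Hmgcs1, the one with the sterol element match. Capitals mark the motifs on either strand, with none overlapping another.
Srebf2, chr15:82147019-82147318, plus strand: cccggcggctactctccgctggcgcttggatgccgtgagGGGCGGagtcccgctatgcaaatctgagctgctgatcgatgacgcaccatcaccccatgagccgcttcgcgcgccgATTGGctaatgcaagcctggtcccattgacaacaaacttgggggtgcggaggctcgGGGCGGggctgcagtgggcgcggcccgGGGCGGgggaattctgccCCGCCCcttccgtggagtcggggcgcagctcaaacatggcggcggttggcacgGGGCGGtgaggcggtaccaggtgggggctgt
Hmgcs1, chr13:119690101-119690400, plus strand: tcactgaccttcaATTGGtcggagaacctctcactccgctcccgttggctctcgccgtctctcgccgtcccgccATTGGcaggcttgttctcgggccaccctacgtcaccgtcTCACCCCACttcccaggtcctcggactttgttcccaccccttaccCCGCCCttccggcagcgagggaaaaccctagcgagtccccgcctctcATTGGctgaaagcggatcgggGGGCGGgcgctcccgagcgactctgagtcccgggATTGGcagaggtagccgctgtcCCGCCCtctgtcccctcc
In the Hmgcs1 window the sterol element reads TCACCCCAC and begins 137 bases before the start of transcription, with 4 CCAAT and 3 GGGCGG matches around it. The Srebf2 window held 1 CCAAT and 5 GGGCGG matches. A match is a stretch of letters, and no binding was measured.

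Hmgcs1, whose window held the match, encodes the cytosolic synthase that condenses acetyl-CoA and acetoacetyl-CoA to HMG-CoA and so feeds the mevalonate pathway. Its brightest probe set, of a type whose probes can bind other transcripts too, had 1455 in the methionine-deficient pool and 1623 in the control pool (log2 difference -0.16, spread 0.18). The other 3 probe sets past the filter were designed on the same transcript sequence. They had 1467, 1467 and 770.2 in the methionine-deficient pool, against 1575, 1420 and 1097 in the control pool, which gives log2 differences of -0.10, 0.05 and -0.51 (spread 0.28 each). The last of these was 1.79 times the spread, the brightest 3 stayed within it, and the 4 differences covered a range of 0.56 between them. The remaining probe set, on another transcript sequence, lay far below the filter at 34.0 in the methionine-deficient pool and 54.7 in the control pool.

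Fdps and Fdft1 act at consecutive steps in the middle of the pathway. By the brightest probe set Fdps was lower and Fdft1 higher, Fdft1 by less than the spread. Fdps, farnesyl diphosphate synthase, had 1613 in the methionine-deficient pool and 2083 in the control pool (1.29-fold lower, log2 difference -0.37, spread 0.18). This is 2.10 times the spread, and 9.42% of genes in the brightest bin had a difference as large. A second Fdps probe set was near the bottom of the range, at 27.0 in the methionine-deficient pool and 5.31 in the control pool, where a log2 difference of 2.15 stands beside a spread of 1.86.

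Fdft1, squalene synthase, makes the first intermediate committed to sterols. Its brightest probe set had 1893 in the methionine-deficient pool and 1778 in the control pool (log2 difference 0.09, spread 0.18). Its second, of a type whose probes can also bind other transcripts, had 1889 in the methionine-deficient pool and 1468 in the control pool (log2 difference 0.36, spread 0.18). Both were higher in the methionine-deficient pool, only the second by more than the spread, and with the poly-A scaling the first was lower, at -0.09. The remaining pair of Fdft1 probe sets was below the filter and split in direction, at 81.6 and 27.7 in the methionine-deficient pool against 54.4 and 81.2 in the control pool.

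Sqle, the squalene epoxidase that carries out the first oxygen-requiring step, was read through 1 probe set. It had 644.9 in the methionine-deficient pool and 708 in the control pool (log2 difference -0.13, spread 0.41), a difference well inside the spread and matched or passed by 75.1% of genes in its bin.

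Lss, the cyclase that turns squalene epoxide into lanosterol, had the largest difference of the enzymes by the brightest probe set, but its probe sets disagreed. The brightest, of a type that can bind several transcripts, had 626.6 in the methionine-deficient pool and 944.5 in the control pool (1.51-fold lower, log2 difference -0.59, spread 0.28), which is 2.08 times the spread. The second, of the type designed for a single transcript, had 379 in the methionine-deficient pool and 290.2 in the control pool (1.30-fold higher, log2 difference 0.38, spread 0.59). The opposite signs leave Lss without a direction across its probe sets, and the third, below the filter, had 36.7 in the methionine-deficient pool and 40.3 in the control pool.

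Cyp51, the demethylase that acts on lanosterol, had nearly the same intensity in both pools, 418 in the methionine-deficient pool and 423 in the control pool (log2 difference -0.02, spread 0.41). Of its bin, 96.6% of genes had a larger or equal difference. Its other probe sets, on the same transcript sequence but below the filter, had 96.5 and 19.7 in the methionine-deficient pool against 168 and 10.8 in the control pool, again in opposite directions.

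**Figure D2:**
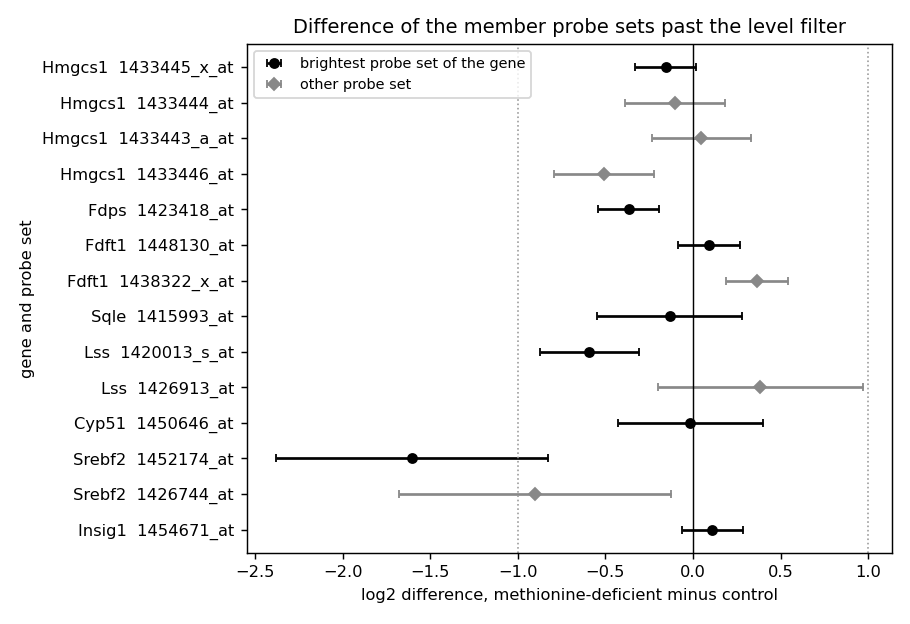
Log2 difference (methionine-deficient minus control) of the 14 member probe sets past the level filter. Black circles are the brightest probe set of a gene and grey diamonds the others, bars are the probe-set spread at that level, and dotted lines mark 2-fold. The Srebf2 points lie farthest to the left at -1.61 and -0.90 with the widest bars, while the Lss points fall on either side of 0.

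Probe sets of 1 gene often differed in direction. Of the 4 genes with more than 1 probe set past the filter, Srebf2 was lower in all of them, Fdft1 was higher in all of them, and Hmgcs1 and Lss were mixed. Over the whole array, 39.6% of the 4819 genes with at least 2 such probe sets had all of them on the same side. The 7 member probe sets below the filter were lower in 4 cases and higher in 3, with log2 differences from -1.52 to 2.15.

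**Figure D3:**
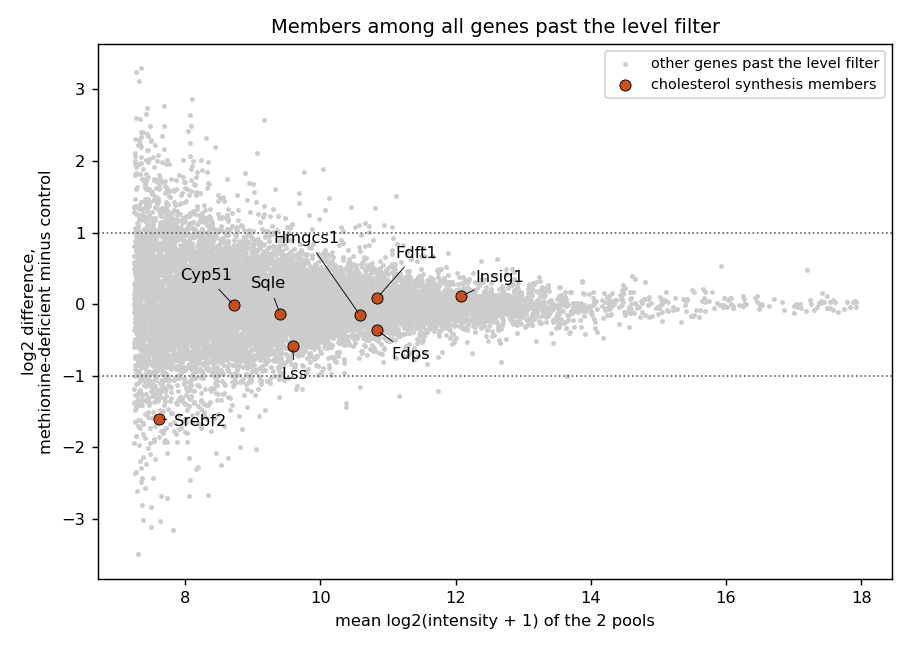
Log2 difference (methionine-deficient minus control) against the mean log2(intensity + 1) of both pools for the 11848 genes past the level filter, with the 8 members as large labelled circles and dotted lines at 2-fold. Differences fan out towards the dim end, where Srebf2 lies at -1.61, while the other 7 members lie inside the 2-fold lines.

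Genes of the same metabolism that were no members were read as lists, each gene through its brightest probe set. A probe set of their own was found for 14 of 16 listed genes of further sterol synthesis, 10 of 11 SREBP regulators, 14 of 15 genes of uptake and transport, 10 of 13 of efflux, storage and oxysterols, and 10 of 10 of fatty acid synthesis. Of 11 further enzymes of sterol synthesis past the filter, 5 were higher and 6 lower, with a median log2 difference of -0.05, and 1 was at least 2-fold lower. This was Msmo1, a methylsterol monooxygenase that acts at a later step than Cyp51. Its only probe set past the filter had 180.1 in the methionine-deficient pool and 527 in the control pool (2.92-fold lower, log2 difference -1.54, spread 0.59). In its bin 2.74% of genes had a difference as large. Mvd, mevalonate diphosphate decarboxylase, had 213 in the methionine-deficient pool and 373 in the control pool (log2 difference -0.80, spread 0.59), but its second probe set went the other way at 1.51. Other probe sets past the filter were also more than 2-fold higher for Idi1, the isomerase of isopentenyl diphosphate, at 1.68 (brightest 0.14), and for Sc5d, a sterol desaturase, at 1.12 (brightest -0.05), both named after their values were seen. Pmvk, phosphomevalonate kinase, had a log2 difference of -0.23.

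None of the 10 genes that regulate SREBP differed by 1.5-fold, with 4 higher, 6 lower and a median of -0.09. They are bright, and 7.55% and 2.40% of all genes in the upper 2 bins, where 9 of them lie, differed by that much. Erlin2, an endoplasmic reticulum protein that takes part in sterol-regulated protein degradation, had the largest log2 difference at 0.34 (spread 0.28). Insig2, the close relative of Insig1, had 1088 in the methionine-deficient pool and 1330.2 in the control pool (log2 difference -0.29, spread 0.28), with both of its other probe sets higher, at 0.23 and 0.39. Mbtps2, a protease that frees SREBP from the membrane, had -0.24. Srebf1 and Scap were picked out after their values were seen, as the genes of the related factor SREBP1 and of the SREBP escort. Srebf1 had 1490 in the methionine-deficient pool and 1582 in the control pool (log2 difference -0.09, spread 0.18), and Scap had 2588 in the methionine-deficient pool and 2217 in the control pool (log2 difference 0.22, spread 0.18). Srebf2 lay in the dimmest level bin, while these 10 genes and Insig1 lay in the 3 brightest. In the dimmest bin 22.5% of genes differed by at least 2-fold, against 3.97%, 0.957% and 0.394% in the 3 bins that hold the other regulators.

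For sterol uptake and transport within cells, 12 genes passed the filter, with 5 higher, 7 lower and a median of -0.07. In the 4 bins that hold them, 10.2%, 3.97%, 0.957% and 0.394% of all genes, from dimmer to brighter, differed by at least 2-fold. None of the 12 did by the brightest probe set. The largest differences were those of Gramd1b, which moves cholesterol from the plasma membrane to the endoplasmic reticulum (log2 difference -0.86, spread 0.41, second probe set -0.03). Next were Mylip, a ubiquitin ligase that marks lipoprotein receptors for degradation (-0.59, spread 0.28), and Npc1, which exports cholesterol from lysosomes (-0.57, spread 0.59). Vldlr, a lipoprotein receptor, had -0.04, with all 4 of its other probe sets past the filter lower, from -1.16 to -0.33. It was named after its values were seen. The median over 9 genes of efflux, storage and oxysterols was -0.09, with 4 of them higher and 5 lower. Abcg1, a sterol exporter, had 909.7 in the methionine-deficient pool and 1596 in the control pool (log2 difference -0.81, spread 0.28), with its second probe set at 0.27. Ch25h and Cyp27a1, which make oxysterols, each had -0.51. The exporters did not share a direction. Abca1 had 0.184 (spread 0.175), with both of its other probe sets past the filter also higher, at 0.478 and 1.005. Abcg8 had 0.257 (spread 0.413) and Abcg5 had -0.208 (spread 0.586). Abca1, Abcg8 and Abcg5 were named after their values were seen. None of the 10 fatty acid synthesis genes that SREBP also drives differed by 1.5-fold. They lay in the 3 brightest level bins, where 19.6%, 7.55% and 2.40% of all genes, from dimmer to brighter, did so. Their median was 0.03, and 5 genes went up and 5 down. It was -0.02 with the median of each array subtracted, and -0.15 with the poly-A scaling. Of these 10 genes, Acss2, which activates acetate, had -0.57. Elovl6, a fatty acid elongase, had -0.55, and both had a second probe set also lower. Fads1, a desaturase, had 0.29.

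**Figure D4:**
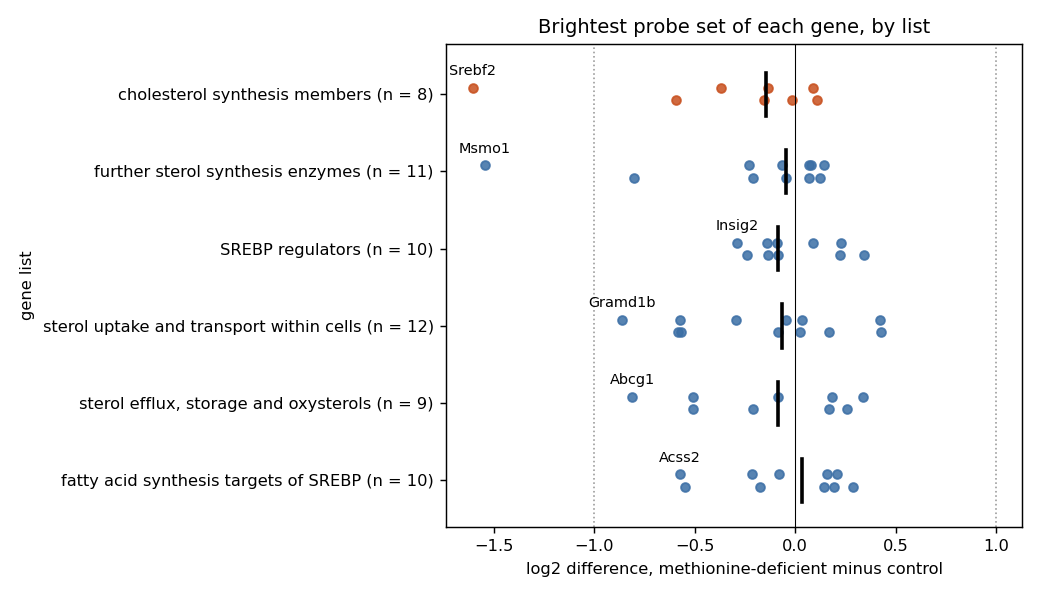
Log2 difference (methionine-deficient minus control) of each gene's brightest probe set for the 8 members and 5 lists of related genes past the level filter. Vertical bars are list medians, dotted lines mark 2-fold, and the lowest gene of each list is named. All 6 medians lie between -0.15 and 0.03, and Srebf2 and Msmo1 are the only points beyond 2-fold.

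Both arrays had the same mean of 500.003 after trimming 2% at each end. The pools had the profile of pancreas, with 5 acinar markers summing to an intensity of 962640 in the methionine-deficient pool and 976444 in the control pool. Of markers of other cells that the tissue can hold, those of adipocytes, a lipid-storing cell type, were lower in 4 of 4 cases, with a summed intensity of 13064 in the methionine-deficient pool and 15507 in the control pool. Those of B cells and plasma cells were lower in 4 of 5, with 5415 in the methionine-deficient pool and 10407 in the control pool. The summed intensity over the lists for islet, duct, macrophage and endothelial cells was between 1.04 and 1.33 times as high in the methionine-deficient pool as in the control pool. By gene, islet markers were higher in 2 of 6 cases, duct markers in 3 of 4, macrophage markers in 2 of 4 and endothelial markers in 3 of 4. The level filter was passed by 3 of 4 markers each of adipocytes, duct and endothelial cells, and by 1 of 3 hepatocyte markers. No marker was at 0. In bulk tissue, fewer cells of a type and less RNA per cell cannot be told apart, and the part of these cell types in the values of Srebf2, Fdps and Lss was not tested. As a measure of RNA integrity, the Actb controls gave a 3' over 5' ratio of 1.76 in the methionine-deficient pool and 1.46 in the control pool. The Gapdh controls gave 1.11 in the methionine-deficient pool and 0.973 in the control pool.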

How the data were processed

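The authors' deposited values are linear intensities per probe set of Affymetrix 3' IVT arrays, with biotin-labelled cRNA made from Trizol-extracted RNA, per the labels' protocols. No label names the software, the background correction or the scaling (not given in the sources used here). Both arrays were found to share a 2% trimmed mean, so a change in total RNA would not be seen. No detection calls were used. Probe sets were named from the 2016 platform annotation, with symbols updated through gene IDs: 34945 of 45101 had 1 symbol, 932 several, 9160 were unnamed here, and 64 were array controls.

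Values were analysed as log2(intensity + 1), with no scaling added. The brightest probe set stood for a gene, and the others were read apart. Genes below the median level were left out of counts, and a gene counted at 2-fold, without a test. The spread is 1.4826 times the median absolute difference between neighbouring probe sets of a gene, divided by the square root of 2. Counting and spread were tested on simulated data with noise of the same size at all levels. In the real data the spread grew towards dim genes, so that test does not cover counting among dim genes such as Srebf2. The members and lists were chosen with earlier results of these data known. Genes named are the members, the 3 largest differences of each list, and those said to be picked afterwards. The lists are not complete, and some genes of the pathway are not reported here. No list was tested. Python 3.11.15, numpy 2.4.6, pandas 2.3.3, scipy 1.17.1 and statsmodels 0.14.6 (loess) were used. The alternatives were other scalings, a pseudocount of 16, other level filters, other choices of probe set, and 1.5-fold and 3-fold sizes. Scaling to the poly-A controls was added after seeing the data.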

Additional observations from a re-analysis of the deposited data

How the results depend on the processing

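The direction of Srebf2 (lower) held in all 9 alternatives that gave a value, with log2 differences from -1.79 to -0.90. All 9 reuse the same 2 dim probe sets, both lower, so their agreement is no independent support. The 75th percentile level filter left Srebf2 out, so 0 of 6 members counted at 2-fold there, and 0 of 4 did with the second brightest probe set. At 1.5-fold the count was 2, Lss joining Srebf2. Lss had 0.38 with its second probe set and also when cross-binding probe sets (_x_at and _s_at) were dropped. Fdps had 0.89 and Fdft1 -0.12 with the mean over probe sets, which takes in those below the filter. There Fdps had a log2 difference of 2.15 and Fdft1 had 0.58 and -1.52, beside a spread of 1.86. The members' median was 0.13 with the second probe set, over the 4 genes that had one past the filter, and -0.060 without the cross-binding ones.

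With the mean over probe sets, the list medians were 0.20 for further synthesis enzymes, 0.17 for SREBP regulators and 0.067 for efflux. With the second probe set they were 0.33 for synthesis enzymes and 0.23 for regulators. These cover only the genes with a second probe set past the filter, a minority of each list. They equal the values of single probe sets, of Sc5d and of Insig2. With the 75th percentile filter the median for uptake was 0.028. These settings change which probe sets or genes enter each median, and beyond that the cause of the changes was not tested. Scaling to the 24 poly-A controls, 23 of them higher in the methionine-deficient pool, moved the median of all genes by -0.18, by construction. All 8 members were then lower, with a median of -0.33, and the lists had medians of -0.23 (synthesis), -0.27 (regulators), -0.25 (uptake), -0.27 (efflux) and -0.15 (fatty acids). Genes at 2-fold were then 292 higher and 520 lower, against 459 higher and 332 lower, 791 in all, without it. The total was 4325 with no level filter, 90 with the 75th percentile filter, 355 with the second probe set, 2302 at 1.5-fold and 215 at 3-fold. With 1 array per group, and Srebf2 close to the level filter, its value can depend on the background correction of the deposited data, which was not tested.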
